A study of Homo sapiens with 2 samples.

Results

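Of 10 long non-coding RNAs known in cancer, UCA1, NEAT1, MALAT1, H19, GAS5, TUG1, CRNDE, PVT1, SNHG1 and HOTAIR, 7 had a probe set annotated to them alone. These 24 probe sets, of 54675 on the array and 41091 with a single gene symbol, were compared between 2 cultures. The names were selected from results of these same arrays, among them the UCA1 signals, so the values below are descriptions of the listed genes. According to the labels both were LN229, a long-established cell line from a human glioblastoma, grown in DMEM with 10% FBS. One overexpressed the microRNA miR-127-3p from the plasmid pSUPER.neo-miR-127-3p. The control carried pSUPER.neo, the same plasmid with no microRNA named. Each group had 1 Affymetrix array, so differences stand without replicates and without p-values. Precision is limited by the number of arrays.

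Long non-coding RNAs act as RNA rather than through a protein. NEAT1 is the scaffold of nuclear paraspeckles, and MALAT1 gathers in nuclear speckles, where splicing factors are stored. GAS5 and SNHG1 are spliced host RNAs whose introns release small nucleolar RNAs (snoRNAs), the guides of ribosomal RNA modification. HOTAIR is transcribed from the HOXC cluster and binds Polycomb and LSD1 complexes. H19 is an imprinted RNA, PVT1 lies next to MYC, and UCA1, CRNDE and TUG1 are studied for raised levels in tumours.

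The overexpressed microRNA is shown because the labels name it as the difference between the cultures. Its mature sequence, from RefSeq, lies at chr14:100883035-100883056 on the plus strand of GRCh38.p14, and the capitals mark the seed, bases 2 to 8, which pairs with targets.

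hsa-miR-127-3p: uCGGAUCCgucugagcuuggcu

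No transcript sequence of the listed RNAs was used here, so matches to this seed within them were not searched.

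Signals are in arbitrary units. A log2 ratio is the difference in log2(signal + 1), miR-127-3p minus control, after subtracting the median over genes, and folds are that value taken off the log scale. A probe set was above the filter if its mean log2 value exceeded that of the median probe set, a signal of about 83.0. Past 2-fold means a log2 ratio of at least 1 in size. Where the dimmer signal was below its array's median, 83.3 for miR-127-3p and 93.9 for the control, the fold is a lower limit against that median. The SD of a single probe set's log2 ratio was 0.41, from the differences between the 2 brightest probe sets of a gene (5974 pairs). This spread within these arrays holds no variation between cultures. Of 22459 probe sets with 1 symbol above the filter, 51.7% had log2 ratios within it.

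The cultures also differed in markers of another cell type than the label gives. Of 12 epithelial markers 7 were above the filter, and 6 of these were at least 2-fold lower, beside 8.67% of 11985 genes. KRT19, EPCAM, DSP and ESRP1 passed the filter only through the control array, where they were high. Of the markers below the filter, CDH1 reached 18.4 with miR-127-3p and 775 in control cells at its highest probe set on each array. CLDN4 reached 36.5 and 201, and CLDN7 and GRHL2 were below the median on both arrays. The summed signal of the 7 was 7595 with miR-127-3p against 92309 in control cells. KRT19 gave 5.64 with miR-127-3p against 12674 in control cells, and EPCAM, an adhesion molecule, gave 30.2 against 9181. The others past 2-fold were KRT8, KRT18, DSP and ESRP1, while KRT7 gave 326 with miR-127-3p against 538 in control cells at its brightest probe set. The 2 KRT7 probe sets above the filter lay on opposite sides of 0, at -0.73 and 0.76. Of 10 glial markers 8 were above the filter, with VIM at 48866 with miR-127-3p against 45584 in control cells and OLIG2 at 201 and 192. SLC1A3, a glial glutamate transporter, gave 2689 with miR-127-3p against 73.9 in control cells and was at least 28.1-fold higher. SOX2 and NES, of neural progenitors, were at least 2-fold lower, and CD44 had a log2 ratio of 0.47. GFAP, an astrocyte filament, stayed at or under 14.9 with miR-127-3p or 34.2 in the control at any of 3 probe sets. AQP4, an astrocyte water channel, was below the median on both arrays too. PTPRC and CD3E, of white blood cells, and CDH5 and VWF, of endothelium, were below the median on both arrays, while PECAM1, also of endothelium, gave 302 with miR-127-3p against 244.6 in control cells and had log2 ratios of 0.29 and 1.003 at its 2 probe sets above the filter. The part of these markers in the values of UCA1 and the other RNAs was not tested, and in bulk RNA fewer cells of a type and less RNA per cell cannot be told apart.

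Most of the listed RNAs lay within 2-fold, and UCA1 was the exception in the upward direction. Of 24 probe sets annotated to a listed RNA alone, 21 were above the filter, and with miR-127-3p 1 of them was 2-fold or more higher and 2 were 2-fold or more lower. Among all 22459 such probe sets, 5.28% were that much higher and 8.08% that much lower, so 3 of 21, or 14.3%, is close to the 13.4% of the whole table past 2-fold either way. The median log2 ratio was -0.30 over the 21 probe sets and 0.0012 over all, with 14 of the 21 below 0. MALAT1 alone supplied 12 of the 21, with 8 of the 14 below 0 and both that were 2-fold or more lower. These probe set counts therefore mostly describe 1 RNA. Counted by gene at the brightest probe set with a single symbol, 1 of 6 listed RNAs was at least 2-fold higher and none lower. Among all 11985 genes the shares were 5.06% higher and 8.67% lower. For GAS5 that probe set was close to the filter, and its brighter ones, listed with snoRNA genes, are given below. The counts of probe sets and of genes include UCA1, which was listed with its signals known. With both signals above the array medians, which leaves out UCA1, 2 of 20 probe sets and 0 of 5 genes were past 2-fold. Under that rule 4.01% of 10176 coding genes outside chromosomes X and Y were that much higher and 5.86% lower. For 457 long non-coding RNA genes the shares were 6.78% and 7.22%.

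**Figure D1:**
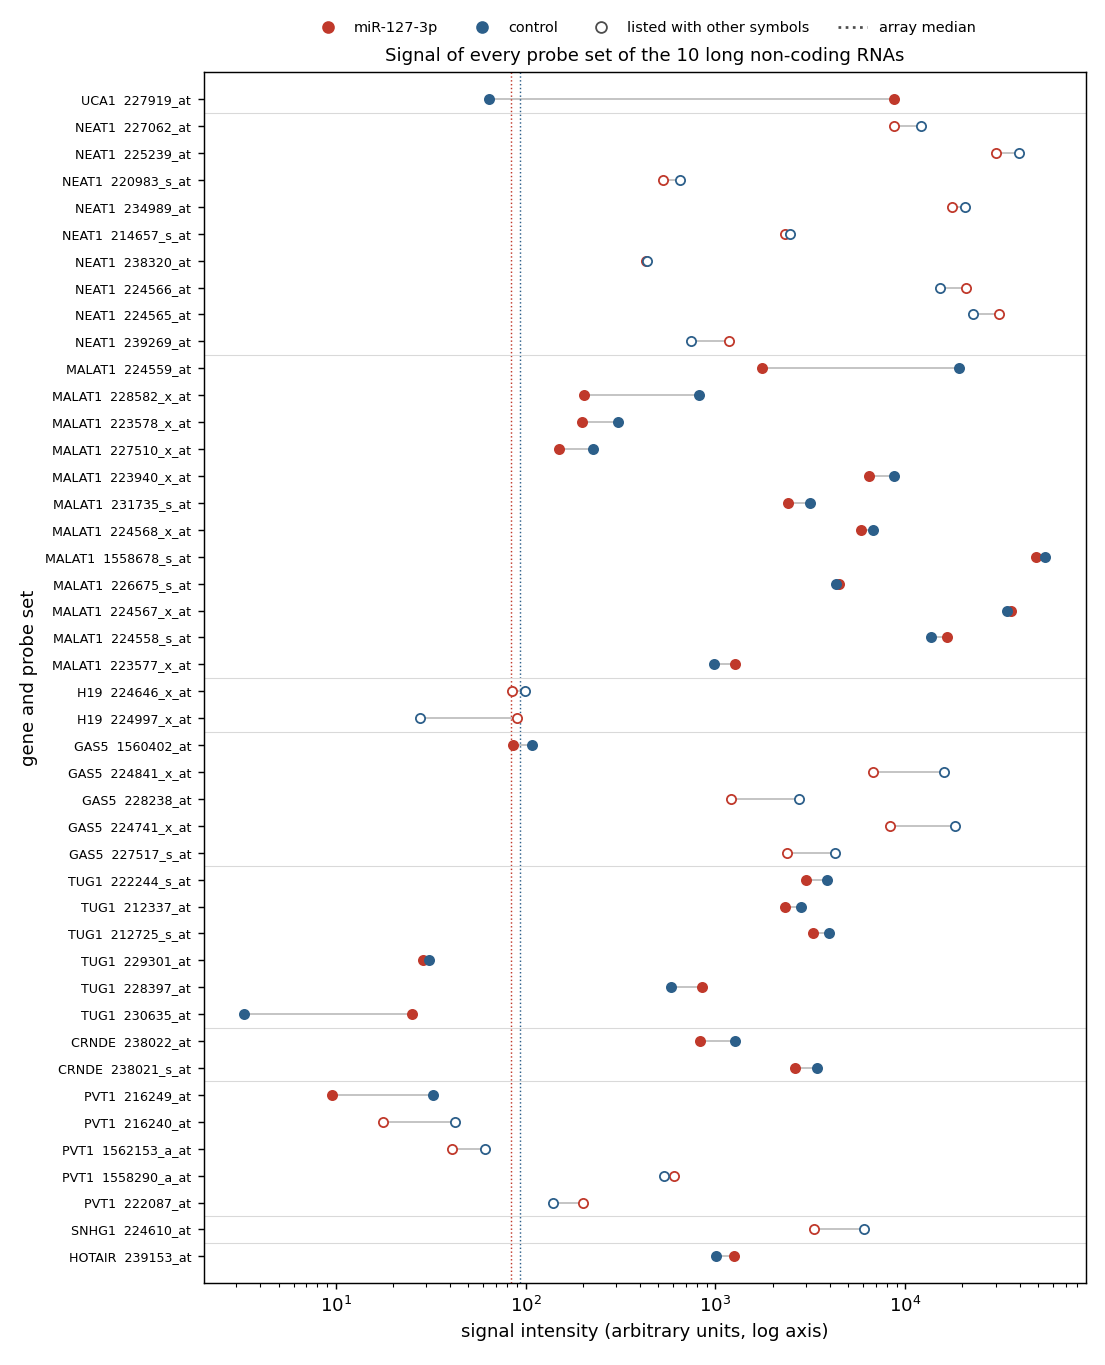
Signal intensity (log axis, arbitrary units) of all 44 probe sets whose annotation includes one of the 10 RNAs, with miR-127-3p in red and control in blue. Filled points are the 24 listed under that RNA alone, open points the 20 listed with other symbols, and dotted lines mark the array medians. UCA1 and MALAT1 224559_at have the widest gaps among probe sets above the filter.

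UCA1 had the widest difference among the listed RNAs, even as a lower limit. The signal of its single probe set was 8702 with miR-127-3p against 64.2 in control cells, so the control signal was below the array median and the fold is at least 91.0. The probe set passed the filter only through the miR-127-3p array, and UCA1 was listed with these signals known. The counts above that include it are therefore descriptions of the list only.

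The coding genes beside UCA1 were dim on both arrays. OR10H1, an olfactory receptor gene, gave 33.3 with miR-127-3p against 9.44 in control cells. CYP4F2, a fatty acid hydroxylase gene, gave 53.0 with miR-127-3p against 4.48 in control cells. Both neighbours were below the array medians in both cultures, so no fold is given for them.

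The 5 genes outside the list whose pair of log2 signals lay nearest to that of UCA1 were SCG5, SLC1A3, RORB, CRH and FRY. Likeness was the distance over the 2 arrays, from 1.64 to 1.86 log2 units. With 2 arrays it says only that these genes were far brighter with miR-127-3p than in the control. SLC1A3 and RORB were below the median of the control array, while SCG5, CRH and FRY were above it. SCG5, a secretory granule protein, gave 3096 with miR-127-3p against 104 in control cells. CRH, a stress hormone gene, gave 2554 with miR-127-3p against 94.7 in control cells. The values of SLC1A3 are given above with the glial markers. FRY gave 3151 with miR-127-3p against 144 in control cells.

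**Figure D2:**
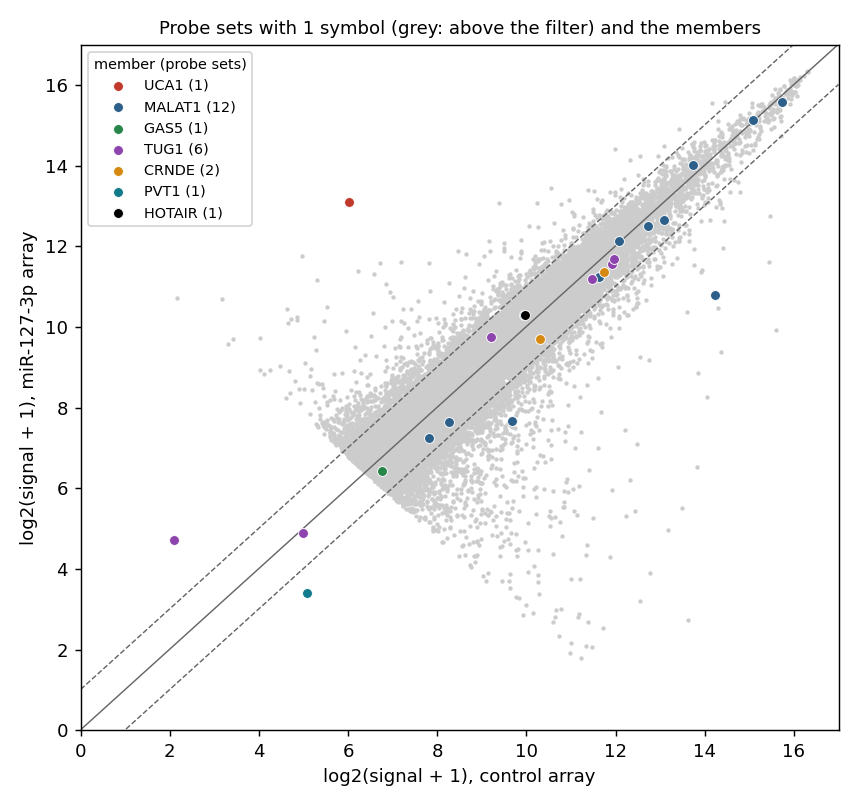
Log2(signal + 1) on the miR-127-3p array against the control array for probe sets with 1 gene symbol above the filter (grey) and the 24 probe sets of 7 listed RNAs (coloured). The solid line is the centre and the dashed lines are 2-fold. UCA1 lies far above the upper dashed line and 2 MALAT1 probe sets lie below the lower one.

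MALAT1, the nuclear speckle RNA, was measured by 12 probe sets that did not give the same answer. Its brightest, 1558678_s_at, gave 48607 with miR-127-3p against 54730 in control cells, a log2 ratio of -0.18. The probe set 224559_at gave 1765 with miR-127-3p against 19093 in control cells and was 10.9-fold lower. The probe set 228582_x_at gave 204 with miR-127-3p against 822 in control cells and was 4.04-fold lower. These 2 stand apart from the other 10, which ran from -0.63 to 0.35 with a median of -0.20, 6 below 0 and 4 above.

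Among the 10, the probe sets 224567_x_at and 226675_s_at were both at 0.04, and 223577_x_at was the highest with 1262 with miR-127-3p against 981 in control cells. The range of the 12 ratios, 3.80 log2 units, was the widest of the 171 genes with at least 6 probe sets above the filter, whose median range was 1.03. GART came next with a range of 3.15 over 8 probe sets. A range tends to widen with more probe sets, and the genes were not matched for their number. Of the 12, 7 carry the suffix _x_at and 4 the suffix _s_at, which mark probes that can match more than one transcript, and 224559_at alone carries neither. So MALAT1 as a whole cannot be placed on one side of 2-fold from these probe sets.

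TUG1, an RNA with a nuclear role that the RefSeq table now lists as protein-coding, had 6 probe sets, 4 of them above the filter. Its brightest gave 3265 with miR-127-3p against 3968 in control cells, a log2 ratio of -0.29. The probe sets 222244_s_at and 212337_at were at -0.37 and -0.30, close to it. The fourth, 228397_at, gave 855 with miR-127-3p against 586 in control cells and was at 0.53, on the other side of 0. The last 2 were below the median on both arrays, with 28.8 and 30.8 for 229301_at and 25.1 and 3.28 for 230635_at (miR-127-3p, then control), and no fold is given.

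CRNDE, first described in colorectal tumours, was lower at both of its probe sets but within 2-fold. The brighter gave 2618 with miR-127-3p against 3408 in control cells, and the other gave 833 with miR-127-3p against 1271 in control cells. Their log2 ratios were -0.39 and -0.62, the first within the probe set spread of 0.41 and the second past it. CRNDE lies between IRX3 and IRX5, homeobox genes of patterning. IRX3 gave 743 with miR-127-3p against 257 in control cells and was 2.86-fold higher, while IRX5, close to the array median, gave 105 with miR-127-3p against 98.4 in control cells.

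HOTAIR gave 1254 with miR-127-3p against 1007 in control cells, a log2 ratio of 0.30 that is within the probe set spread. HOXC11, which overlaps it, gave 191 with miR-127-3p against 216 in control cells. HOXC10, the next coding gene on one side, gave 677 with miR-127-3p against 758 in control cells, and HOXC12 on the other side was below the median on both arrays. The locus thus showed no value past 2-fold at these genes.

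PVT1 had only 1 probe set of its own, 216249_at, with 9.54 with miR-127-3p against 32.6 in control cells, below both medians. Another 4 probe sets were listed under PVT1 together with MIR1204, a microRNA gene that lies within it. Of these, 1558290_a_at gave 604 with miR-127-3p against 539 in control cells, and 222087_at gave 199.996 with miR-127-3p against 139 in control cells. The log2 ratios of these 2 were 0.15 and 0.51, and the other 2 were below the median on both arrays. MYC, the coding neighbour of PVT1 and a growth-promoting transcription factor, gave 578 with miR-127-3p against 6931 in control cells and was 12.1-fold lower. No fold is given for PVT1 alone, since its own probe set was dim and the readable ones are annotated with MIR1204 too.

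NEAT1, H19 and SNHG1 had no probe set to themselves. Their probe sets, and most of those of GAS5 and PVT1, are listed with microRNA or snoRNA genes, 20 probe sets in all. In the RefSeq gene table of GRCh38.p14 each of those other genes lies inside the long RNA. By the annotation alone a signal there cannot be assigned to a single symbol, and these 20 are kept out of the counts above. Past the filter were 17, of which 3 lay 2-fold or more below the control and none above, beside 7.25% lower and 5.46% higher among 1117 probe sets with several symbols.

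The 9 probe sets listed under NEAT1 and MIR612 were all within 2-fold, 3 with ratios above 0 and 6 below. The brightest by mean, 225239_at, gave 30038 with miR-127-3p against 39522 in control cells, and 224565_at gave 31235 with miR-127-3p against 22865 in control cells. Their log2 ratios were -0.41 and 0.44, so bright probe sets of this locus lay on opposite sides of 0. The whole range was -0.48 to 0.65, with a median of -0.09. FRMD8, the nearest measured coding gene, gave 3159 with miR-127-3p against 3602 in control cells.

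The 2 probe sets listed under H19 and MIR675 were near or below the array medians. One gave 85.3 with miR-127-3p against 99.4 in control cells, and the other gave 90.6 with miR-127-3p against 27.8 in control cells. H19 was thus dim in both cultures. MRPL23, a mitochondrial ribosomal protein gene that overlaps H19 in the table, gave 4277 with miR-127-3p against 3438 in control cells.

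The snoRNA hosts GAS5 and SNHG1 were lower with miR-127-3p wherever their loci were bright. GAS5 alone is named at 1560402_at, which was close to the filter with 85.5 with miR-127-3p against 108 in control cells, a log2 ratio of -0.35. The 4 probe sets listed under GAS5 and 8 snoRNA genes had log2 ratios from -1.26 to -0.86. Of these, 224741_x_at gave 8282 with miR-127-3p against 18334 in control cells, and 224841_x_at gave 6761 with miR-127-3p against 16023 in control cells. The probe set 228238_at, without a cross-match suffix, gave 1202 with miR-127-3p against 2748 in control cells and was 2.30-fold lower. All 4 were on the same side, 3 past 2-fold, and 227517_s_at was 1.82-fold lower. At SNHG1 and 8 snoRNA genes, 224610_at gave 3297 with miR-127-3p against 6077 in control cells and was 1.86-fold lower.

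The starts of GAS5, SNHG1 and TUG1 are shown because snoRNA host RNAs are known to begin with a run of pyrimidines, as ribosomal protein mRNAs do, and because TUG1 holds a MYC-type E-box. Each window runs from 250 bases before to 50 after the annotated start in RefSeq, GRCh38.p14, on the minus strand for GAS5 (chr1:173868996-173869295) and SNHG1 (chr11:62855836-62856135) and on the plus strand for TUG1 (chr22:30969015-30969314). Capitals mark the first 50 bases from the annotated start of GAS5 and SNHG1, and the E-box of TUG1. Where the RNAs start in these cells was not measured.

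GAS5: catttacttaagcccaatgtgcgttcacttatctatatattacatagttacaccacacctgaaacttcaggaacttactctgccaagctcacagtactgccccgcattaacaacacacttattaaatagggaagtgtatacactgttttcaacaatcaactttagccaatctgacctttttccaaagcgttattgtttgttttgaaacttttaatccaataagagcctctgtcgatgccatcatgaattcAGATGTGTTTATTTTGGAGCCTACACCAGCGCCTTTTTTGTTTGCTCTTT

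SNHG1: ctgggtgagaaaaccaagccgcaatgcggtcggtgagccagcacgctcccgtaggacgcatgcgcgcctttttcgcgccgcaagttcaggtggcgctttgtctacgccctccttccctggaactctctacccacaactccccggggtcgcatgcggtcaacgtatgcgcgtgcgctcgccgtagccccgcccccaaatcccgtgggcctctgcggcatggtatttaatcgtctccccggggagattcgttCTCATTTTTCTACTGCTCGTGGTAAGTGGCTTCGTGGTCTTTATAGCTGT

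TUG1: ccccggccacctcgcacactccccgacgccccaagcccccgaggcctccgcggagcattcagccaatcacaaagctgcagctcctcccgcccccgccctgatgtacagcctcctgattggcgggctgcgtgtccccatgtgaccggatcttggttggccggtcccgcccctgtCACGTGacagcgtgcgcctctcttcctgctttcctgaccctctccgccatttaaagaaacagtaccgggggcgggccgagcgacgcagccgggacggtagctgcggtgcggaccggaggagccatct

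A C followed by 4 pyrimidines, read on the transcribed strand only and starting within 5 bases of the annotated start, was found in neither the GAS5 nor the SNHG1 window. Of 19 snoRNA hosts with a window 11 held it, and 21.1% of 35116 windows did. CACGTG, which reads the same on both strands, was in the TUG1 window 77 bases before the start, and in none of the other 5 listed RNAs with a window. Of all windows, 7.26% held it. These are letter matches in RefSeq windows, not measured sites, and a missing match says only that the letters are absent there.

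Probe sets of snoRNA hosts, GAS5 and SNHG1 included, were at least 2-fold lower mainly where they are listed with other genes. A list of 20 further hosts was combined with GAS5 and SNHG1, and probe sets listed alone or with genes inside the host were used. Of 36 such probe sets above the filter, from 21 hosts, 12 were at least 2-fold lower, or 33.3%, and none was higher, against the 8.08% and 7.25% given above for the same direction. The median log2 ratio was -0.81, and 30 of 36 lay below 0. Above the filter 49.9% of all probe sets with 1 symbol and 54.2% of those with several did. Probe sets of the same host are not independent. At the brightest probe set of each host 7 of 21 were at least 2-fold lower, or 33.3%, and 5 had ratios above 0. Among all genes, at single-symbol probe sets, 8.67% were that much lower. Without GAS5 and SNHG1, 9 of 30 probe sets were, with a median of -0.63, and 6 of 19 hosts, with a median of -0.55. Of the 13 probe sets with a single symbol 1 was past 2-fold, or 7.69%, near the 8.08% of all, with a median of -0.51. Of the 23 listed with other genes 11 were, or 47.8% beside 7.25%, with a median of -0.98. Both of these groups include probe sets of GAS5 or SNHG1.

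SNHG8 had the lowest value, 1430 with miR-127-3p against 4196 in control cells, and was 2.96-fold lower. TAF1D, which encodes a factor of ribosomal RNA gene transcription and hosts snoRNAs, gave 2602 with miR-127-3p against 6047 in control cells at a probe set shared with 7 other symbols, and 367 against 544 at its own. EPB41L4A-AS1 gave 3266 with miR-127-3p against 7396 in control cells and was 2.28-fold lower with a single symbol. ZFAS1 gave 12974 with miR-127-3p against 24275 in control cells at its brightest, and its 4 probe sets ran from -0.92 to -0.68. The hosts did not all go one way. SNHG17 gave 3199 with miR-127-3p against 2430 in control cells, and SNHG18 gave 1018 and 700.4. SNHG16 gave 14400 with miR-127-3p against 15939 in control cells, slightly lower with a log2 ratio of -0.16.

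**Figure D3:**
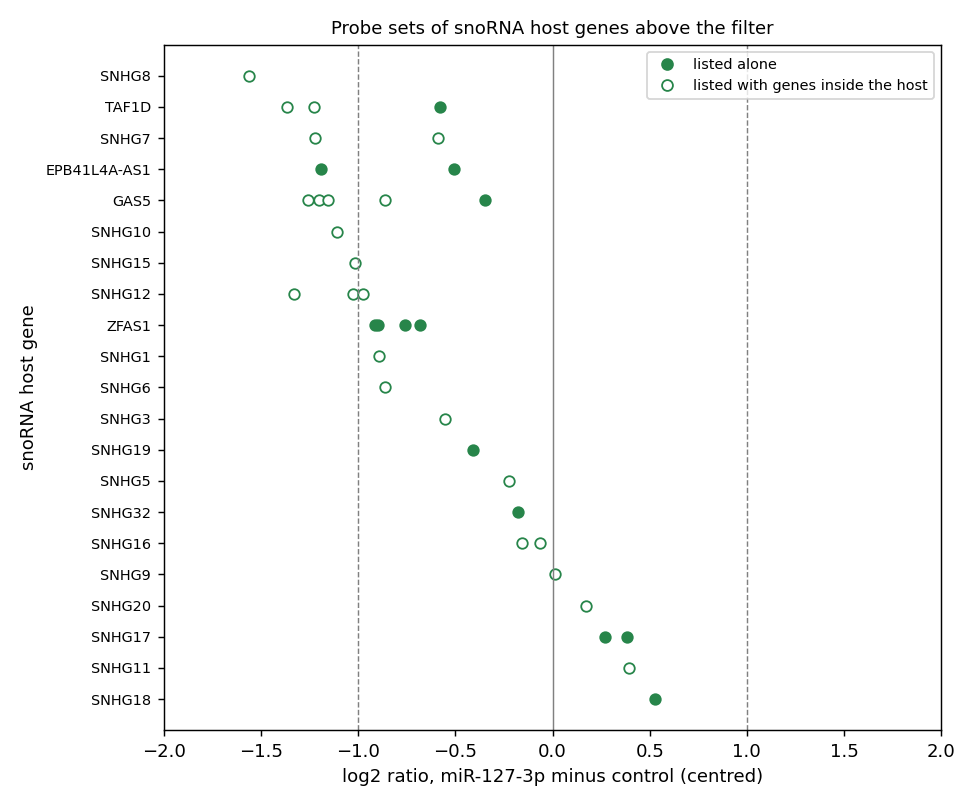
Centred log2 ratio, miR-127-3p minus control, of 36 probe sets of 21 snoRNA host genes above the filter, ordered by the brightest probe set of each host. Filled points have a single gene symbol and open points are listed with genes that lie inside the host. Dashed lines are 2-fold, 12 points lie at or past the lower line and none past the upper.

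Proteins that work with these RNAs are given at the brightest probe set of each gene, where 13.7% of all genes were past 2-fold. Among snoRNP proteins, 1 of 11 was past 2-fold, near that share, FBL (fibrillarin, the methylase of box C/D particles), with 4811 with miR-127-3p against 9813 in control cells, and the median was -0.05. NOP58, another box C/D core protein, was at 0.43 and NUFIP1, an assembly factor, at 0.44, while SNU13 reached -1.01 at the lower of its 2 probe sets. Of 8 decay factors that act on spliced host RNAs, SMG6, an endonuclease of nonsense-mediated decay, gave 189 with miR-127-3p against 80.0 in control cells, at least 1.99-fold higher. Its log2 ratio was 1.22, but the control signal was below the array median and the limit does not reach 2-fold. The other 7 decay factors were within 2-fold. UPF2 was at -0.62 and UPF1, the central helicase, gave 662 with miR-127-3p against 659 in control cells.

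Of 16 paraspeckle proteins 1 was past 2-fold, again near the 13.7% of all genes, MATR3, with 1191 with miR-127-3p against 2520 in control cells. NONO and SFPQ, the core pair that binds NEAT1, were at -0.45 and 0.10, and the list median was -0.15. HNRNPH3 was at -0.95 and TAF15 at 0.51. At other probe sets SMARCA4 went as low as -1.35 and PSPC1 as high as 1.03. All 10 nuclear speckle proteins stayed within 2-fold at their brightest probe sets, from SRRM1 at -0.20 to PRPF6 at 0.53, with a median of 0.15. At other probe sets SRSF1 and SRSF3 went as low as -1.02 and -1.001. With only probe sets that lack a cross-match suffix, 5 genes stayed and this median was -0.43.

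All 14 genes of Polycomb repressive complex 2 and the LSD1 complex, the partners named for HOTAIR, were within 2-fold at their brightest probe sets, and 12 had ratios below 0. Of all genes, 13.7% were past 2-fold, and MTF2, another subunit, reached -1.51 at the lowest of its 5 probe sets. JARID2, a recruiting subunit, gave 727 with miR-127-3p against 1405 in control cells, and EED, a core subunit, gave 1561 with miR-127-3p against 2827 in control cells. EZH2, the methyltransferase, was at -0.40 and KDM1A, the LSD1 demethylase, at -0.89. AEBP2 and HDAC1 were above 0, at 0.08 and 0.11, and the median was -0.48 beside 0 over all genes.

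Further long RNAs studied in cancer lay on both sides. Of 18 above the filter, 2 lay 2-fold or more above the control and 2 that far below it, with a median of 0.00013, beside 5.06% higher and 8.67% lower among all genes. LINC01116 gave 1748 with miR-127-3p against 695 in control cells, and LINC00473 gave 330.2 with miR-127-3p against 157 in control cells. CCEPR gave 2.75 with miR-127-3p against 2006 in control cells and was at least 24.0-fold lower. KCNQ1OT1, an imprinted antisense RNA, gave 1102 with miR-127-3p against 2358 in control cells, with 3 probe sets between -1.11 and -0.75. Of 10 genes from a list of imprinted genes 2 were lower and 2 higher past 2-fold, against the same shares of all genes. Whether each is imprinted in these cells was not tested. MEST, at least 31.8-fold lower, and CDKN1C, at least 7.03-fold lower, were lower, and PEG10, 4.53-fold, and DCN, 2.22-fold, were higher. The 4 DCN probe sets above the filter ran from 0.10 to 1.16. Like CCEPR, MEST and CDKN1C were below the median of the miR-127-3p array and passed the filter only through the control array. GNAS, a G protein gene within 2-fold at its brightest probe set, reached -2.03 at the lowest of 9.

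**Figure D4:**
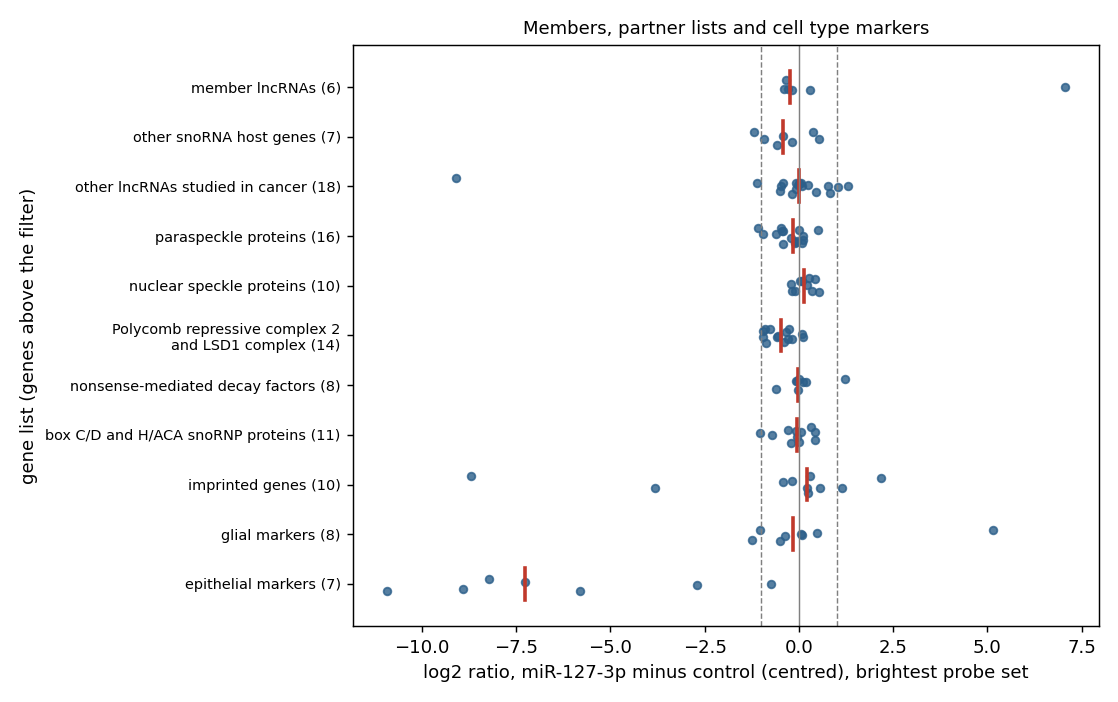
Centred log2 ratio, miR-127-3p minus control, at the brightest probe set of each gene above the filter, by list, with the number of genes in brackets and the median as a red bar. Dashed lines are 2-fold. GAS5 is shown at its single-symbol probe set, which was close to the filter. The epithelial markers lie furthest to the left, with a median of -7.27 that rests on dim miR-127-3p signals and is -5.79 with signals below the array median set to it, and the listed RNAs lie near 0 except UCA1.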

How the data were processed

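Total RNA of 2 cultures was labelled with biotin by an Affymetrix 3′ kit, per the labels' protocols. The deposited numbers are linear intensity values, 1 per probe set and array. Their 2% trimmed mean is 500.1 on both arrays. The sources used here name neither the software nor the background correction. Groups came from the genotype labels.

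The platform annotation gave 1 symbol to 41091 of 54613 non-control probe sets and several to 1801, and 11721 were unnamed here. Symbols were updated through Entrez identifiers, of which 99.9% were in the RefSeq table. Log2(signal + 1) was centred on the median over 11985 genes, a shift of 0.01. A filter kept probe sets above the median mean, and the brightest stood for its gene. No test was possible with 1 array per group, so the rule of size was 2-fold. Named genes were every member, list genes past 2-fold and up to 2 at each end otherwise, nearest coding neighbours, and the 5 most like UCA1. GART, UPF1, NONO, SFPQ, EZH2, EED, KDM1A, VIM, OLIG2, CD44, GFAP, AQP4, PTPRC, CD3E, CDH5, VWF, PECAM1, KRT7, CDH1, CLDN4, CLDN7, GRHL2, SMARCA4, PSPC1, MTF2, SRSF1, SRSF3, SNU13, GNAS and the snoRNA hosts with several symbols were named for their role or after their values were seen. Members and lists were chosen with earlier results of these data known. The steps were tested on simulated data. Python 3.11.15, numpy 2.4.6, pandas 2.3.3, statsmodels 0.14.6 and matplotlib 3.10.9 were used.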

Additional observations from a re-analysis of the deposited data

How the results depend on the processing

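The count of member probe sets past 2-fold, 3 of 21, became 6 of 21 at 1.5-fold, 5 of 24 with no filter, and 6 of 38 with probe sets listed with other symbols included, the last chosen after seeing the data. It stayed at 2 or 3 under the other 11 alternatives run. Shares over all probe sets were not computed for these settings, so a changed count here or below is not a result about the RNAs. The count of genes, 1 of 6, became 2 of 7 with no filter, 2 of 6 without cross-match suffixes, where 224559_at stands for MALAT1, and 0 of 5 when both signals had to exceed the array median, which leaves out UCA1. The median over member probe sets ran from -0.33 to -0.22. Of 185 values of single member probe sets under 9 alternatives 183 shifted by less than 0.41, and UCA1 shifted by more under 2 of them, to 6.50 with a pseudocount of 32 and 6.51 with dim signals set to the array median. The snoRNA host count, 12 of 36 lower, became 21 at 1.5-fold, 0 at 3-fold and 7 of 21 without cross-match suffixes, and their median ran from -0.94 to -0.57 under 10 alternatives of scale, filter, floor, pseudocount and suffix, in which no host probe set was at least 2-fold higher. The epithelial median, -7.27, ran from -5.79 to -5.29 with no filter, either pseudocount or the floor at the array median. No paired analysis was possible because each group has 1 array. Signals near the array medians limit H19, PVT1 and the control value of UCA1.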

Other observations

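Genes with the RefSeq biotype lncRNA, leaving out chromosomes X and Y, were looked at as a class after the values were seen. Of 556 above the filter 8.45% lay 2-fold or more above the control and 11.9% that far below, while of 10826 protein-coding genes 4.79% were higher and 8.39% lower. Their signals differ, with a median control signal of 226 for the lncRNA genes and 919 for the coding genes. Among genes above the array median on both arrays, 6.78% of 457 lncRNA genes were higher and 7.22% lower, beside 4.01% and 5.86% of 10176 coding genes. The class median was 0.02 for lncRNA genes and 0.0016 for coding genes.

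Several lncRNA genes outside the list of 10 also had wide ratios, all with a dim signal on one array. LINC01477 gave 767 with miR-127-3p against 8.95 in control cells and was at least 8.03-fold higher. TMEM132D-AS1 gave 946 with miR-127-3p against 60.5 in control cells, at least 9.90-fold higher, and LINC02249 gave 881 with miR-127-3p against 90.1 in control cells, at least 9.22-fold higher. In the other direction CCEPR, named above, gave 2.75 with miR-127-3p against 2006 in control cells and was at least 24.0-fold lower. ERICH2-DT gave 21.2 with miR-127-3p against 873 in control cells, at least 10.4-fold lower. VAC14-AS1 gave 32.6 with miR-127-3p against 426 in control cells, at least 5.11-fold lower.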
